A study of Drosophila melanogaster with 2 samples.

Results

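The mir-8 hairpin of Drosophila melanogaster was examined through its entries in a table of microRNA read counts. Its members were chosen by the hairpin accession MI0000128, which the definition of the set gives as dme-mir-8. They are the 2 products listed under that accession, out of 101 products from 83 hairpins. The table counted reads in whole larvae aged 48 h and grown at 25 °C, with 1 wild-type library and 1 library from larvae homozygous for cdk9-G57S. The allele alters Cdk9, the kinase subunit of the elongation factor P-TEFb. The series title frames the question as whether microRNAs depend on the Microprocessor being recruited to RNA polymerase II during elongation. Because each genotype had 1 library, the genotypes were compared without a test or p-value. Intervals are at the 95% level and cover counting error only, and PCR copies of a read are not independent molecules. A difference between the libraries therefore cannot be told apart from differences in the larvae or in the preparation, including developmental stage.

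As background, a microRNA hairpin is cut from its primary transcript in the nucleus by Drosha and Pasha and then trimmed to a short duplex by Dicer. One strand of the duplex is usually kept in an Argonaute protein, where it pairs with messenger RNAs through its seed, while the other strand is mostly degraded. In Drosophila, mir-8 belongs to the conserved miR-200 family, and it is known for promoting body growth from the larval fat body by repressing u-shaped, an inhibitor of insulin signalling. It is also known to limit Atrophin, a transcriptional corepressor, in neurons. In the BDGP6.54 annotation the mir-8 hairpin lies on the same strand as the long non-coding RNA gene lncRNA:CR43650, inside an exon of both of its 2 annotated transcripts, and RefSeq lists pri-mir-8 among that gene's synonyms. No other mir gene of that annotation lies within lncRNA:CR43650. The annotation places 1 mature product on each side of the hairpin's midpoint. The table does not say which listed product is which, so they are called the more and the less abundant product. Whole-larva RNA mixes all tissues, so fewer cells of a type that makes mir-8 and less mir-8 RNA per cell cannot be told apart.

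The more abundant product of mir-8, MI0000128_2, was read 749599 times in wild type and 361293 times in cdk9-G57S. The libraries held 2135660 and 2204104 reads over all listed products, so the mutant library had fewer mir-8 reads despite its slightly higher total. It took 35.1% of the wild-type library (exact Clopper-Pearson interval 35.0 to 35.2) and 16.4% of the cdk9-G57S library (16.3 to 16.4). Relative to the library total, this was 2.14-fold lower in cdk9-G57S (exact conditional-binomial interval 2.13 to 2.15). At the wild-type share, a library of the mutant's size would have held 773622 reads of this product.

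The less abundant product, MI0000128_1, was read 15442 times in wild type and 9544 times in cdk9-G57S. Its share went from 0.723% (0.712 to 0.735) to 0.433% (0.424 to 0.442), or 1.67-fold lower (1.63 to 1.71). Its rank among the 101 products was 23 in wild type and 37 in the mutant, whereas the more abundant product ranked 1 in both. Although it was the rarer of the pair, it was not a rare product of the table. In wild type it had more reads than 53 of the 65 hairpins with a single listed product, and in cdk9-G57S more than 43 of them. With both products summed, the mir-8 hairpin accounted for 35.8% of wild-type reads (35.8 to 35.9) and 16.8% of cdk9-G57S reads (16.8 to 16.9), a 2.13-fold lower share (2.12 to 2.14). The more abundant product supplied nearly all of this sum, so the hairpin followed it closely.

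**Figure D1:**
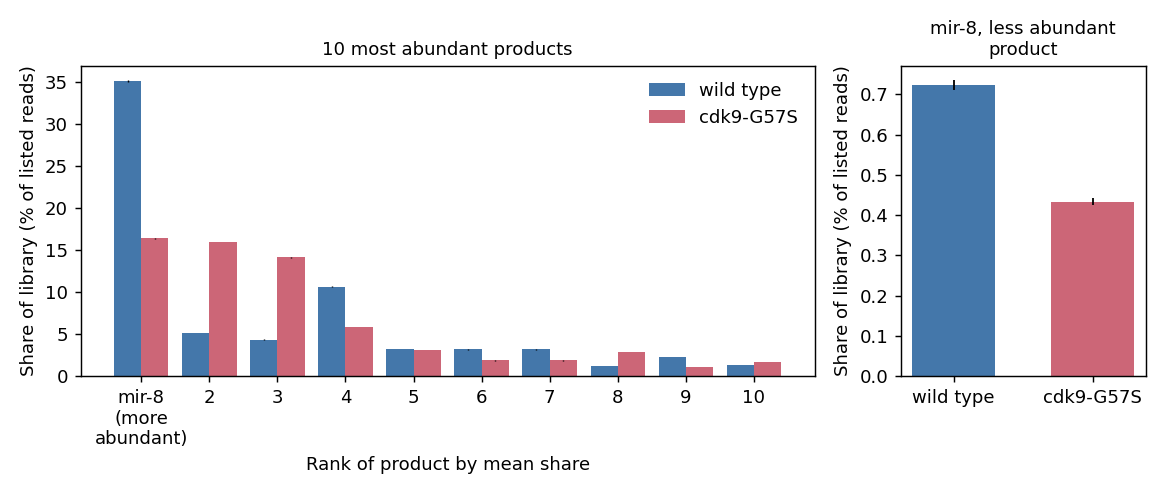
Left, share of each library in percent of listed reads for the 10 products with the highest mean share; right, the same for the less abundant mir-8 product on its own scale. Bars are single libraries and error bars are exact 95% counting intervals; the more abundant mir-8 product stood at 35.1% and 16.4%, and the less abundant at 0.723% and 0.433%.

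The lead of mir-8 over the rest of the table differed between the libraries. In wild type the more abundant mir-8 product had 3.30 times the reads of the next product (3.29 to 3.32), which was MI0000129_1 with 226832 reads. In cdk9-G57S the next product was MI0000136_2 with 351685 reads, and mir-8 had 1.03 times as many (1.02 to 1.03). It thus stayed first in the mutant library by a margin wider than counting error but small beside that in wild type. The 8 next products of the wild-type library together had 720177 reads, fewer than mir-8 alone, and it took 9 of them (754364 reads) to exceed it. Among them, 2 products of different hairpins had 67925 and 67924 wild-type reads, and 40964 and 40961 mutant reads. They may not be separate, so the sums may count reads more than once and 9 may be too few. In cdk9-G57S, 2 products were enough, MI0000136_2 and MI0000116_2, with 663503 reads together. Against the median product of each library, mir-8 had 181 times the reads in the wild-type library and 73.7 times in the mutant library. The files and annotation at hand pair no name with the accessions of these other hairpins.

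Expressed in percentage points of the library, the more abundant mir-8 product was 18.7 points lower in cdk9-G57S and the less abundant 0.290 points lower. All products with a lower share in cdk9-G57S lost 36.3 points together, and the more abundant mir-8 product made up 51.6% of that loss. The next largest loss was 4.78 points. A loss in points depends on the starting share as well as on the ratio. By ratio, 16 of the 99 products of other hairpins were lower still. The 2 largest gains were 10.8 points for MI0000136_2 and 9.81 points for MI0000116_2, which sum to 20.6. Shares of 1 library sum to a fixed total, so a gain of one product lowers the share of all others, and these points do not show how many molecules were present. The reads outside mir-8 made up 64.2% of the wild-type library and 83.2% of the cdk9-G57S library.

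The weight of mir-8 was also seen in how evenly reads were spread over products. The effective number of products, the inverse of the sum of squared shares, is the number of equally abundant products that would give the same unevenness. It was 6.88 for the wild-type library and 12.2 for the mutant library. The more abundant mir-8 product supplied 84.7% of the wild-type sum of squares and 32.8% of the mutant one. Among the remaining 99 products, with both mir-8 products left out, the order of the libraries turned, with 18.6 for wild type and 12.6 for the mutant. The mutant pool was thus more even than the wild-type pool with mir-8 and less even without it.

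Of all 101 products, 16.8% had at least a 2-fold lower share in cdk9-G57S with an interval that excluded a ratio of 1, and 27.7% had at least a 2-fold higher one. The more abundant mir-8 product was among the 17 lower products, with a log2 ratio of -1.10 (cdk9-G57S over wild type), and the less abundant was not, at -0.74. The median over all products was 0.24, in a range from -3.18 to 4.28. A lower share in itself was common, at 46.5% of the products. The call of the more abundant product lay close to the limit: the product just below it in ratio, MI0000131_1, was 2.16-fold lower, and the one just above it was 1.99-fold lower and outside the 2-fold limit. It also depended on the scaling. With MI0000136_2 left out of the totals the log2 ratio was -0.92, short of 2-fold, whereas with the 2 mir-8 products left out of the totals it was -1.47. In the authors' deposited table of normalized values the more abundant product stood at 826732 and 327549 and the less abundant at 17031 and 8653, a log2 ratio of -1.34 and -0.98 respectively, and 23.8% of products were at least 2-fold lower.

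A ratio between mir-8 and another product does not depend on the scaling, since each library's factor cancels. Measured against each of the 99 products of other hairpins in turn, the more abundant mir-8 product was relatively lower in cdk9-G57S against 83 and relatively higher against 16. For the less abundant product the numbers were 74 and 25. Both mir-8 products therefore lay in the lower part of the distribution without being at its end. Among the 10 products nearest in rank to the less abundant mir-8 product by mean share, 5 on each side, 6 had a lower share in cdk9-G57S and log2 ratios ran from -2.67 to 2.19. The neighbours at 2.18 and 2.19 came from different hairpins with reads within 2% of each other in both libraries, so they may not be separate. Products of similar abundance thus differed in both directions.

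**Figure D2:**
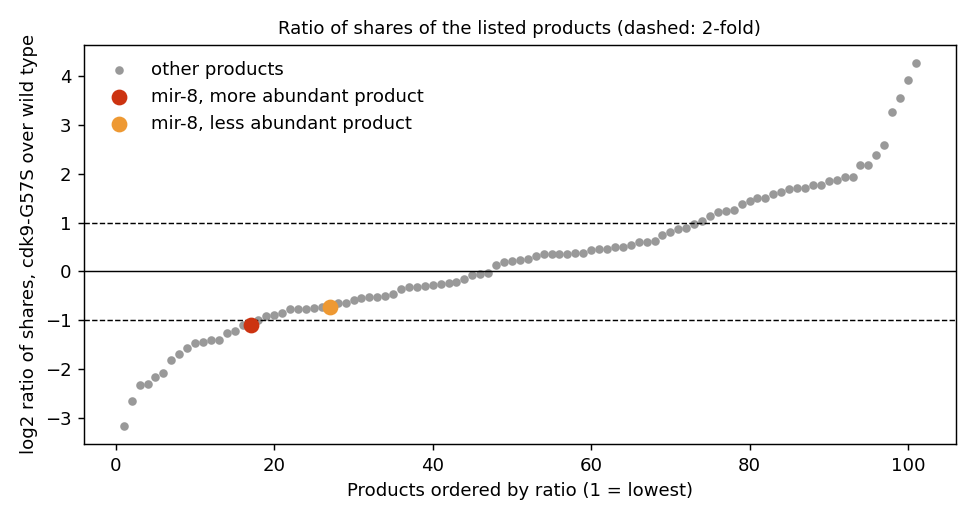
Log2 ratio of cdk9-G57S share to wild-type share (y axis) for the 101 listed products in ascending order (x axis), with dashed lines at a 2-fold difference. The mir-8 products, in colour, lie at -1.10 and -0.74, in the lower part of a range from -3.18 to 4.28.

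Summed over products, 12.0% of the 83 hairpins were at least 2-fold lower in cdk9-G57S and 28.9% were at least 2-fold higher. The mir-8 hairpin had a log2 ratio of -1.09, lower than 73 of the other 82 hairpins and higher than 9, while the median hairpin was at 0.36. The 2 hairpins next below it in mean share went the other way. The reads of MI0000136 went from 111717 in the wild-type library to 352092 in the mutant library, and its share was 3.05-fold higher (3.03 to 3.07). Those of MI0000116 were 93158 and 312665, which put its share 3.25-fold higher (3.23 to 3.28). By contrast, the hairpin next to mir-8 by wild-type reads was also lower in cdk9-G57S. It had 11.1% of the wild-type library and 5.98% of the cdk9-G57S library, a 1.86-fold lower share (1.84 to 1.87). The abundant hairpins of these larvae therefore did not shift together.

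The 3 hairpins whose log2 ratio was closest to that of mir-8, over these 2 libraries, each had a single listed product. MI0000131 was the closest, with 48758 and 23289 reads and a log2 ratio of -1.11. The next was 22nd of the hairpins by mean share, with 27307 and 14140 reads and a log2 ratio of -0.99. The third was 70th, with 2406 and 1037 reads and a log2 ratio of -1.26. All 3 had fewer reads than mir-8 in both libraries, so the likeness is one of ratio and not of level. With 1 library per genotype, likeness in 1 ratio is a weak measure.

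The last comparison was between the products of mir-8 within each library. In wild type there were 48.5 reads of the more abundant product for each read of the less abundant one (47.8 to 49.3), and in cdk9-G57S there were 37.9 (37.1 to 38.6). Of all mir-8 reads, 2.02% belonged to the less abundant product in wild type (1.99 to 2.05) and 2.57% in the mutant (2.52 to 2.63). Both products were lower in the mutant library, and the more abundant one more so, by 0.36 log2 units (normal-approximation interval 0.32 to 0.40), or 1.28-fold. This difference exceeded counting error, but its size in another pair of libraries is unknown.

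Set beside the other hairpins with 2 listed products, the products of mir-8 kept close together. Of these 18 hairpins, 66.7% had products at least 2-fold apart in ratio of shares, and mir-8 did not. Its separation of 0.36 log2 units was smaller than that of each of the other 17, which had a median of 1.74 and a largest value of 5.65. The next smallest was 0.50 (0.34 to 0.67), so its counting interval overlapped that of mir-8 and the order of the first 2 is not settled by these counts. The one after that was 0.56. Direction differed among the 18 hairpins too, with both products lower in 5, both higher in 4 and opposite in 9. In the other 4 hairpins with both products lower, log2 ratios ran from -2.67 to -0.59 for the product that was more abundant in wild type and from -2.30 to -0.21 for its partner, and the mir-8 values lay inside both ranges. The hairpins separated by 0.56, 1.21 and 3.10 log2 units each had a product matched to within 2% by one listed under a different accession. Their reads may be shared, so these separations and directions may not belong to 1 hairpin. Those at 1.21 and 3.10 were counted as at least 2-fold apart, and the comparison was not repeated without them.

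**Figure D3:**
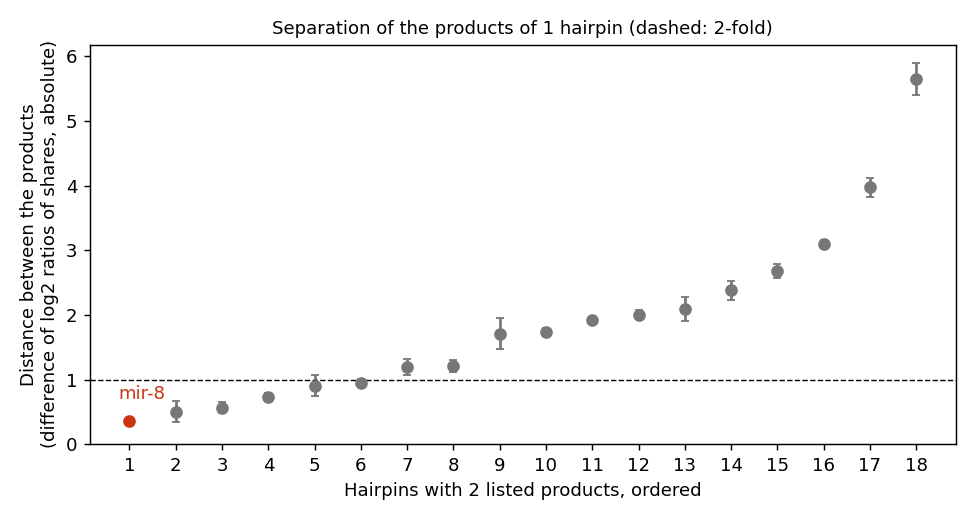
Absolute difference between the log2 ratios of shares of the 2 products of a hairpin (y axis) for the 18 hairpins with 2 listed products in ascending order (x axis), with 95% counting intervals and a dashed line at 2-fold. The mir-8 hairpin, in red, has the lowest value at 0.36, and the largest value is 5.65.

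Among the 18 hairpins with 2 listed products, the strong preference for one product was shared by few. The 65 hairpins with a single listed product have no listed partner, so their preference could not be measured and may be as strong. A smaller percentage in the less abundant product than that of mir-8 was found in 2 of the 18 in wild type and in 3 in the mutant. The median of the other 17 was 17.0% for the wild-type library and 9.69% for the mutant library, against 2.02% and 2.57% for mir-8. The less abundant product was here the one with fewer wild-type reads, so that the same product is followed in both libraries. Among these 18 products, that of mir-8 ranked 1 by wild-type reads and 4 by mutant reads. A low percentage thus went with a high read number for mir-8, because the hairpin as a whole was so abundant. No product of another hairpin had reads within 2% of either mir-8 product in both libraries. The closest to the less abundant product had 14217 and 10208 reads, within 7.93% of it in both.

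**Figure D4:**
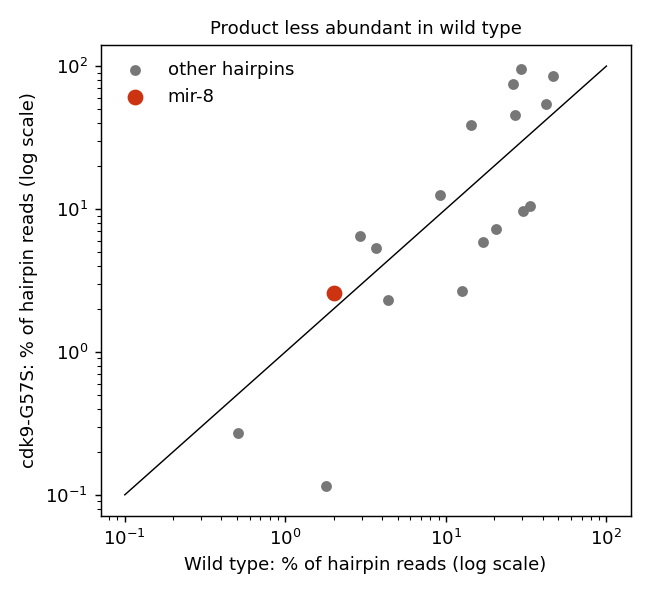
Percent of a hairpin's reads in the product that was less abundant in wild type, in wild type (x axis, log scale) and cdk9-G57S (y axis, log scale), for the 18 hairpins with 2 listed products; the line marks equal values. The mir-8 hairpin, in red, lies near the line at 2.02% and 2.57%, among the lowest percentages in both libraries.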

How the data were processed

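Whole-larva total RNA was extracted with Trizol and sequenced by Illumina, per the labels' protocols. Bowtie and the build dm3 come from the submitters' processing notes; for the Bowtie version, trimming, annotation release and treatment of reads with several matching hairpins, the sources used here give nothing. Deposited values are raw read counts per microRNA product. The wild-type column was entered as deposited estimated counts, because 1 footer value in it is not whole. Both count columns were nevertheless handled alike, and all product counts were whole, so rounding altered none. A second pair of columns is the authors' normalized signal, per the column headers. The factors it implies for wild type and cdk9-G57S, 0.907 and 1.10, equal the DESeq2 factors computed here after rounding. Footer lines were left out.

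Counts were divided by the column total. Ratios of shares were given exact conditional-binomial intervals and shares Clopper-Pearson intervals. In place of a test, a product was called when its ratio was 2 or more, or 0.5 or less, its interval excluded 1 and its reads summed to at least 20. The script for ratio intervals was tested on simulated Poisson counts, which hold no variation between samples. Members and lists were chosen with earlier results of these data known. The named hairpins were the next most abundant ones and the 3 closest to mir-8 in log2 ratio, limited to 2 higher and 2 lower accessions besides mir-8. Lists of growth and metabolic microRNAs and of tissue and stage markers, meant also to check the labelled tissue, could not be computed, because 0 accessions were paired with a name in the annotation at hand. That annotation (BDGP6.54) is not dm3, so no coordinates are given. Alternatives were other scalings (DESeq2 and edgeR TMM factors, the authors' columns, totals without abundant products), other limits and minimums, a pseudocount of 5, and dropping near-identical products. Scaling factors came from DESeq2 1.42.0 and edgeR 4.0.16 in R 4.3.3, and all else from Python 3.11.15 with scipy 1.17.1, pandas 2.3.3, numpy 2.4.6 and, for plots, matplotlib 3.10.9.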

Additional observations from a re-analysis of the deposited data

How the results depend on the processing

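The lower share of both mir-8 products and of the hairpin kept its direction under each scaling tried. For the more abundant product the log2 ratio of -1.10 became -1.34 with DESeq2 factors and in the authors' columns, -1.27 with TMM factors, -1.47 without mir-8 in the totals and -0.92 without the most abundant other product. For the less abundant product -0.74 became -0.98, -0.91, -1.11 and -0.57 in the same order, so it passed 2-fold only without mir-8 in the totals. For the hairpin -1.09 became -1.33, -1.26, -1.46 and -0.92. Keeping 1 product of each set with reads within 2% in both libraries (4 sets, 5 products dropped, none of mir-8) raised shares because the total shrank. The more abundant product was then at 37.4% and 17.5% in wild type and cdk9-G57S, the less abundant at 0.771% and 0.463%, and the hairpin at 38.2% and 18.0%. The ratio between the mir-8 products could not move in the authors' columns, where 1 factor per library cancels, and a pseudocount of 5 is negligible beside counts of 9544 or more, so neither setting tested it. The number of products at least 2-fold lower, 17 of 101, became 29 without mir-8 in the totals, 30 at a limit of 1.5-fold and 6 at 4-fold (8 higher). It was 11 of the 71 products with at least 5000 reads summed, and 10 of the 83 hairpins. DESeq2 factors gave 24 lower and 24 higher and TMM factors 21 and 26, against 17 and 28; without mir-8 in the totals 23 were higher. No paired analysis was possible because there was 1 library per genotype. Counting error of the mir-8 values was small at this depth, and variation between larvae and preparations was not measured.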
